A study of Homo sapiens with 18 samples.

Results

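Ribosome biogenesis factors are the nucleolar proteins that transcribe, modify, cut and fold ribosomal RNA and assemble it with ribosomal proteins. Here they are 46 genes taken by symbol from a list of such factors. The rule itself uses no measured value, but the list was chosen with earlier results of these data known. Of these, 42 had a named probe and 41 passed the filter on dim genes, among 12483 genes tested on the array. WDR43, EBNA1BP2, DDX18 and GNL3 were not analysed here for want of a named probe, and NPM1, which encodes the nucleolar chaperone nucleophosmin, had 1 probe that read 5.34 to 5.75 and fell below the filter. Values are log2 intensities of 1 probe per gene, the one with the highest mean over all arrays, and a difference of 1 is a doubling. Levels are compared within a probe and never between genes.

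RNA was measured on 18 single-colour Illumina bead arrays of cells labelled HepG2, a human hepatocellular carcinoma line, with 3 arrays in each of 6 groups. The groups were si-PSTAR with doxorubicin (DOX, 400 nM for 16 hours), si-PSTAR without drug, si-hnRNP K with the same drug treatment, si-hnRNP K without drug, a scramble siRNA with the drug, and the scramble siRNA without drug. PSTAR is a long noncoding RNA, hnRNP K is an RNA-binding protein, and DOX is a DNA-damaging topoisomerase poison. Whether the 3 arrays of a group stem from separate cultures is not stated in the labels. The p-values therefore measure only array-to-array spread, which may be technical.

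The labels and the signal disagreed for the targeted protein gene. HNRNPK read 8.32 ± 0.14 in arrays labelled si-PSTAR with DOX and 8.44 ± 0.017 in arrays labelled si-PSTAR without it, 11.36 ± 0.22 and 11.55 ± 0.12 in the corresponding arrays labelled si-hnRNP K, and 11.95 ± 0.074 and 11.72 ± 0.090 in the scramble arrays (SD, n = 3 each). No probe was named for PSTAR, so groups are called by their labels throughout. Of 10 hepatocyte and HepG2 markers, 9 were measured and 1, ALB, was above the filter level of 5.72 on every array, while AFP, APOA1 and APOB stayed between 5.25 and 5.88. Of 6 markers of other cell types, the fibroblast genes COL1A1 and COL3A1 were above it on every array. None was at 0, since the lowest value in the table was 4.25. The 18 arrays fell into 2 clusters by correlation, with the untreated si-hnRNP K and untreated scramble arrays (6 arrays) apart from the other 12. The lowest correlation within any group was 0.990, the lowest within the clusters was 0.978 for the 6 arrays and 0.957 for the 12, and the highest between the clusters was 0.963, so the clusters are not cleanly separated.

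Ribosome production begins in the nucleolus, where RNA polymerase I transcribes a long precursor of ribosomal RNA. Small nucleolar RNPs of the box C/D class methylate it and those of the box H/ACA class convert uridines to pseudouridines, while separate sets of assembly factors mature the small and the large subunit. MYC is a known activator of many of these genes and binds the E-box CACGTG, and rapidly dividing tumour cells depend on high ribosome output.

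Promoter windows from RefSeq (GRCh38.p14, 250 bases before to 50 after the annotated start) were matched for 39 of the 46 genes. The E-box CACGTG, which is the same on both strands, occurred in 14 of these 39 windows (35.9%), against 10.29% of 9893 windows of tested genes and 7.435% of all 27305 windows. The ETS-type word CCGGAAG, on either strand, occurred in 33.33% of the member windows against 18.44% of those of tested genes. The GC box GGGCGG was in 76.92% of member windows and 67.88% of those of tested genes, and CCAAT was in 35.9% and 37.35%. TATAAA was in 1 of the 39 windows (2.564%), against 6.409% of those of tested genes. A word match is a description of the sequence and not a binding site.

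Windows of 4 members are shown 5′ to 3′ because they hold one or both of these words near genes whose values recur in the results. Capitals mark CACGTG and CCGGAAG (or its reverse complement CTTCCGG). FBL, chr19:39846330-39846629 on the minus strand, has its E-box at position 7 after the start. MYBBP1A, chr17:4555335-4555634 on the minus strand, has its E-box at position 28 after the start. NIP7, chr16:69339522-69339821, and POLR1B, chr2:112541786-112542085, both on the plus strand, hold no CACGTG in this window and 1 CCGGAAG each.
FBL: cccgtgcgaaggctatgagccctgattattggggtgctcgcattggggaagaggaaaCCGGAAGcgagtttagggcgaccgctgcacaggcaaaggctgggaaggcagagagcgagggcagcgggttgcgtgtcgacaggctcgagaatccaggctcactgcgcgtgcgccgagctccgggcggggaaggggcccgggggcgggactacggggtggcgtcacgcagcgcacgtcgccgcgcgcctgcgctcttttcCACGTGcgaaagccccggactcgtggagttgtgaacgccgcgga
MYBBP1A: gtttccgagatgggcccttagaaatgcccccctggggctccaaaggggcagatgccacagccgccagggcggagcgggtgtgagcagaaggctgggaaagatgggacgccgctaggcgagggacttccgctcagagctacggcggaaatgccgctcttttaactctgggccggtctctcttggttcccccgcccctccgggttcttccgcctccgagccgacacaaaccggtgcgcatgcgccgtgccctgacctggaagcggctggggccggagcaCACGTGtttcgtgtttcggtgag
NIP7: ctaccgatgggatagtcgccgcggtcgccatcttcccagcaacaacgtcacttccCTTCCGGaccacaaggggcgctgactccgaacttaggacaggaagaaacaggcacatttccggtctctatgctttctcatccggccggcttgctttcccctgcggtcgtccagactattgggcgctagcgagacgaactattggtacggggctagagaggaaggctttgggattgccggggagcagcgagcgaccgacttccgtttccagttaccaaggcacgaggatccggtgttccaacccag
POLR1B: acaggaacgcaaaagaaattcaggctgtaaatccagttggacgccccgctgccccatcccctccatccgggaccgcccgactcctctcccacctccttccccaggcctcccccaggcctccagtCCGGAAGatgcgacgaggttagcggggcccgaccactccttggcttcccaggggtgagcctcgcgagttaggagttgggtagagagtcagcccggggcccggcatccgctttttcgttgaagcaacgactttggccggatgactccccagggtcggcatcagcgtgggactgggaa

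In drug-treated cells, most ribosome biogenesis factors were higher in the arrays labelled si-PSTAR than in the scramble arrays. At a limma adjusted p under 0.05, 27 of the 41 members were higher and 2 were lower, while 45.0% of all tested genes were called in this comparison, 22.4% higher and 22.6% lower. The median difference was 0.34 over the members and 0.01 over all tested genes. All 3 box C/D proteins and all 3 tested nucleolar chaperones and helicases were higher, as were 9 of 14 small-subunit factors, 7 of 12 large-subunit factors, 3 of 5 polymerase I genes and 2 of 4 box H/ACA proteins. The 2 lower members were POLR1B and NOP2.

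NOLC1, a phosphoprotein that chaperones small nucleolar RNPs through the nucleolus and Cajal bodies, changed most. It read 10.05, 9.94 and 10.05 in arrays labelled si-PSTAR with DOX, against 8.35, 8.38 and 8.37 in scramble arrays with DOX. The groups lay more than 1 log2 unit apart, a 3.13-fold rise (log2 1.64 ± 0.082 (SE), limma adjusted p = 1.13e-14). NOP56, a core scaffold of the box C/D RNP, read 12.06, 11.99 and 12.07 against 10.95, 10.99 and 11.15 in the scramble arrays, a rise of 1.01 ± 0.12 (SE). Its partner NOP58 read 11.04, 11.11 and 11.27 against 10.25, 10.31 and 10.52, a rise of 0.78 ± 0.10 (SE). In neither gene did the groups overlap, and the methyltransferase of the same particle, FBL, rose by 0.58 ± 0.093 (SE). Dyskerin, the pseudouridine synthase encoded by DKC1, read 12.40, 12.45 and 12.34 against 11.61, 11.57 and 11.46 in the scramble arrays. That rise of 0.85 ± 0.10 (SE) also left no overlap. GAR1 rose by 0.67 ± 0.12 (SE), while the other box H/ACA proteins NHP2 (0.14) and NOP10 (0.05) did not pass the test.

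PPAN, a factor of large-subunit maturation, read 8.93, 8.90 and 8.86 in arrays labelled si-PSTAR with DOX and 7.92, 8.09 and 7.80 in scramble arrays with DOX, a 1.94-fold rise without overlap (limma adjusted p = 4.73e-08). PPAN shares transcripts with a neighbouring gene by readthrough, so its probe may not report PPAN alone. Among small-subunit factors, DDX10, a helicase, rose by 0.60, RRP12 by 0.53 and HEATR1, which couples transcription to early processing, by 0.39. NOP14 (0.12), BYSL (0.12), UTP18 (-0.02) and UTP4 (-0.22) did not pass, though the second-brightest NOP14 probe gave 0.42, a call. The PES1, BOP1 and WDR12 proteins form one complex of the large subunit, and their genes had differences of 0.34, 0.23 and 0.23, of which that of BOP1 did not pass. The calls of UBTF, RRP9, NOB1, TSR1, PES1, WDR12, NOP2 and BRIX1 were each lost under at least 3 of 17 alternative settings, and leaving out any 1 of the 6 arrays compared ended at least 1 of these calls.

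The polymerase I genes did not move together. POLR1B, the second-largest subunit of the enzyme, read 7.33, 7.14 and 7.13 in arrays labelled si-PSTAR with DOX and 7.84, 7.88 and 7.99 in scramble arrays with DOX. These groups did not overlap, and the gene fell by 0.70 (1.63-fold lower, limma adjusted p = 4.21e-07). Its second-brightest probe gave -0.27, which also passed. POLR1A, the largest subunit, differed by 0.05 with a 95% interval of -0.19 to 0.29. RRN3, which brings the polymerase to the promoter, rose by 0.69, although RRN3 has pseudogene copies that its probe could also report. MYBBP1A, a nucleolar protein of ribosomal RNA processing, rose by 0.68 ± 0.11 (SE). UBTF was also called higher, but 8 of 17 alternative settings lost its call. Its second-brightest probe turned the sign to -0.23 and was not called. NOP2, a ribosomal RNA methyltransferase of the large subunit, read 11.16, 11.03 and 11.36 against 11.33, 11.56 and 11.47 in the scramble arrays. These arrays overlapped, the difference of -0.27 had a limma adjusted p of 0.0304, and the second-brightest probe turned the sign to 0.12.

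**Figure D1:**
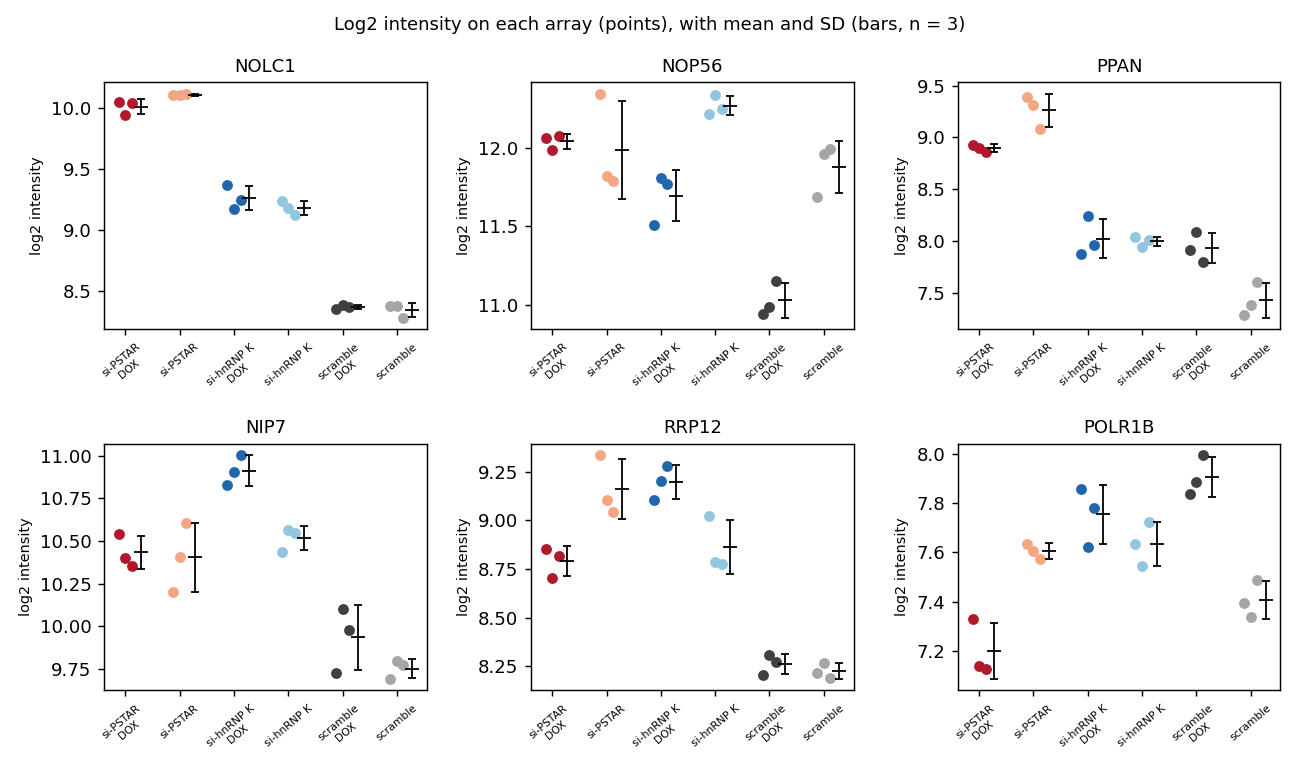
Log2 intensity (vertical axes) of NOLC1, NOP56, PPAN, NIP7, RRP12 and POLR1B on each of the 18 arrays, by labelled group, with drug-treated arrays left of untreated ones, and with mean and SD (bars, n = 3). NOLC1 lies near 10 in both si-PSTAR groups, between 9.12 and 9.37 in both si-hnRNP K groups and between 8.28 and 8.38 in both scramble groups.

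In the arrays labelled si-hnRNP K with DOX, 19 of the 41 members were higher than in scramble arrays with DOX and 0 were lower at a limma adjusted p under 0.05. Of all tested genes 39.7% were called, 19.8% higher and 19.9% lower. The median was 0.26 over the members and -0.01 over all tested genes. The count of lower members was 0 under each of the 17 alternative settings. All 3 box C/D proteins and all 3 tested chaperones and helicases were higher, with 3 of 4 box H/ACA proteins, 6 of 14 small-subunit factors, 3 of 12 large-subunit factors and 1 of 5 polymerase I genes.

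NIP7, a factor of pre-ribosomal RNA processing and large-subunit assembly, read 10.83, 10.91 and 11.00 in arrays labelled si-hnRNP K with DOX and 9.73, 10.10 and 9.98 in scramble arrays with DOX. The groups were well apart, a 1.97-fold rise (log2 0.98 ± 0.10 (SE), limma adjusted p = 2.97e-08). RRP12, which takes part in export and maturation of pre-ribosomes, read 9.11, 9.20 and 9.28 against 8.21, 8.31 and 8.27 in the scramble arrays, a rise of 0.93 ± 0.094 (SE). NOLC1 read 9.37, 9.18 and 9.24 against 8.35, 8.38 and 8.37, a rise of 0.90 ± 0.082 (SE). None of these 3 genes overlapped between the groups. DDX10 read 9.91, 9.79 and 10.05 against 9.08, 9.45 and 9.16 in the scramble arrays, a rise of 0.69 ± 0.11 (SE). HEATR1 read 10.33, 10.41 and 10.54 against 9.73, 9.75 and 9.79, a rise of 0.67 ± 0.085 (SE). These groups were also apart. Differences that did not pass included PPAN at 0.09 (95% interval -0.13 to 0.31), MYBBP1A at 0.22, POLR1B at -0.15 and RRS1 at -0.07. NOP14 was -0.12 with its brightest probe and 0.45, a call, with its second-brightest.

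Without the drug, 17 members were higher and 2 were lower in arrays labelled si-hnRNP K than in scramble arrays, while 33.3% of all tested genes were called, 17.0% higher and 16.2% lower. The median was 0.21 over the members and 0.00 over all tested genes. By role, all 3 tested chaperones and helicases, 2 of 3 box C/D and 2 of 4 box H/ACA proteins, 5 of 14 small-subunit and 5 of 12 large-subunit factors were higher, and 0 of 5 polymerase I genes were called. NOLC1 read 9.23, 9.18 and 9.12 against 8.37, 8.37 and 8.28 in untreated scramble arrays, a rise of 0.84 ± 0.082 (SE) (limma adjusted p = 6.08e-09). NIP7 read 10.44, 10.56 and 10.55 against 9.69, 9.80 and 9.77, a rise of 0.76 ± 0.10 (SE). HEATR1 read 10.48, 10.51 and 10.53 against 9.78, 9.75 and 9.77, a rise of 0.74 ± 0.085 (SE). The groups of all 3 genes were apart.

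RRP12 read 9.02, 8.79 and 8.78 in untreated arrays labelled si-hnRNP K and 8.22, 8.27 and 8.19 in untreated scramble arrays, a rise of 0.64 ± 0.094 (SE). PPAN read 8.04, 7.95 and 8.01 against 7.29, 7.39 and 7.61, a rise of 0.57 ± 0.11 (SE). Neither gene overlapped. The lower members were UTP15, a WD-repeat protein of early small-subunit processing, and RRS1, which helps to incorporate a ribosomal RNP into the large subunit. UTP15 read 6.45, 6.81 and 6.90 against 7.52, 7.32 and 7.32 in the scramble arrays, a difference of -0.67 on the log2 scale (limma adjusted p = 1.03e-04). RRS1 read 9.47, 9.51 and 9.53 against 9.76, 9.71 and 9.75, a difference of -0.24 (limma adjusted p = 0.0334). Both were lower on all 3 arrays, but leaving out any 1 of the 6 arrays ended the call of RRS1. The interaction of si-hnRNP K with the drug called 0 of 41 members with limma, while 3.17% of all tested genes were called, 2.05% higher and 1.12% lower. The alternative settings called up to 4 members. The largest interaction values were UTP15 at 0.61 (limma adjusted p = 0.0505) and NOP58 at 0.51 (limma adjusted p = 0.0502).

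Other members were called as well. In arrays labelled si-PSTAR with DOX, nucleolin (NCL) was higher by 0.56, the helicase DDX21 by 0.35, UTP20 by 0.46, UTP15 by 0.45, RRP1B by 0.47, RRS1 by 0.41 and NIP7 by 0.50. In arrays labelled si-hnRNP K with DOX, NOP56 was higher by 0.67, NOP58 by 0.54, FBL by 0.45, DDX21 by 0.63, NCL by 0.44, DKC1 by 0.49, GAR1 by 0.57 and NHP2 by 0.26. The other calls there were RRP9 at 0.56, NOP16 at 0.53, RRN3 at 0.46, BRIX1 at 0.38, BYSL at 0.37 and UTP20 at 0.33. In untreated si-hnRNP K arrays DKC1 was higher by 0.52, FBL by 0.48, RRP1 by 0.48, NOP16 by 0.45, WDR12 by 0.40, DDX10 by 0.40 and UTP4 by 0.39. There the box C/D scaffold NOP58 differed by 0.03 (95% interval -0.18 to 0.24), while its partner NOP56 was higher by 0.39, a call lost with the second-brightest probe (0.063). Leaving out single arrays ended the calls of NHP2, UTP20 and BYSL in si-hnRNP K arrays with DOX. In untreated ones it ended those of NOP56, GAR1, NCL, DDX21 and UTP14A. The second-brightest probe also ended the calls of NHP2 with DOX (0.13) and of NCL and UTP14A without it. The mean of all probes ended those of NHP2 and UTP20 with DOX and of NOP56 and UTP14A without it.

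**Figure D2:**
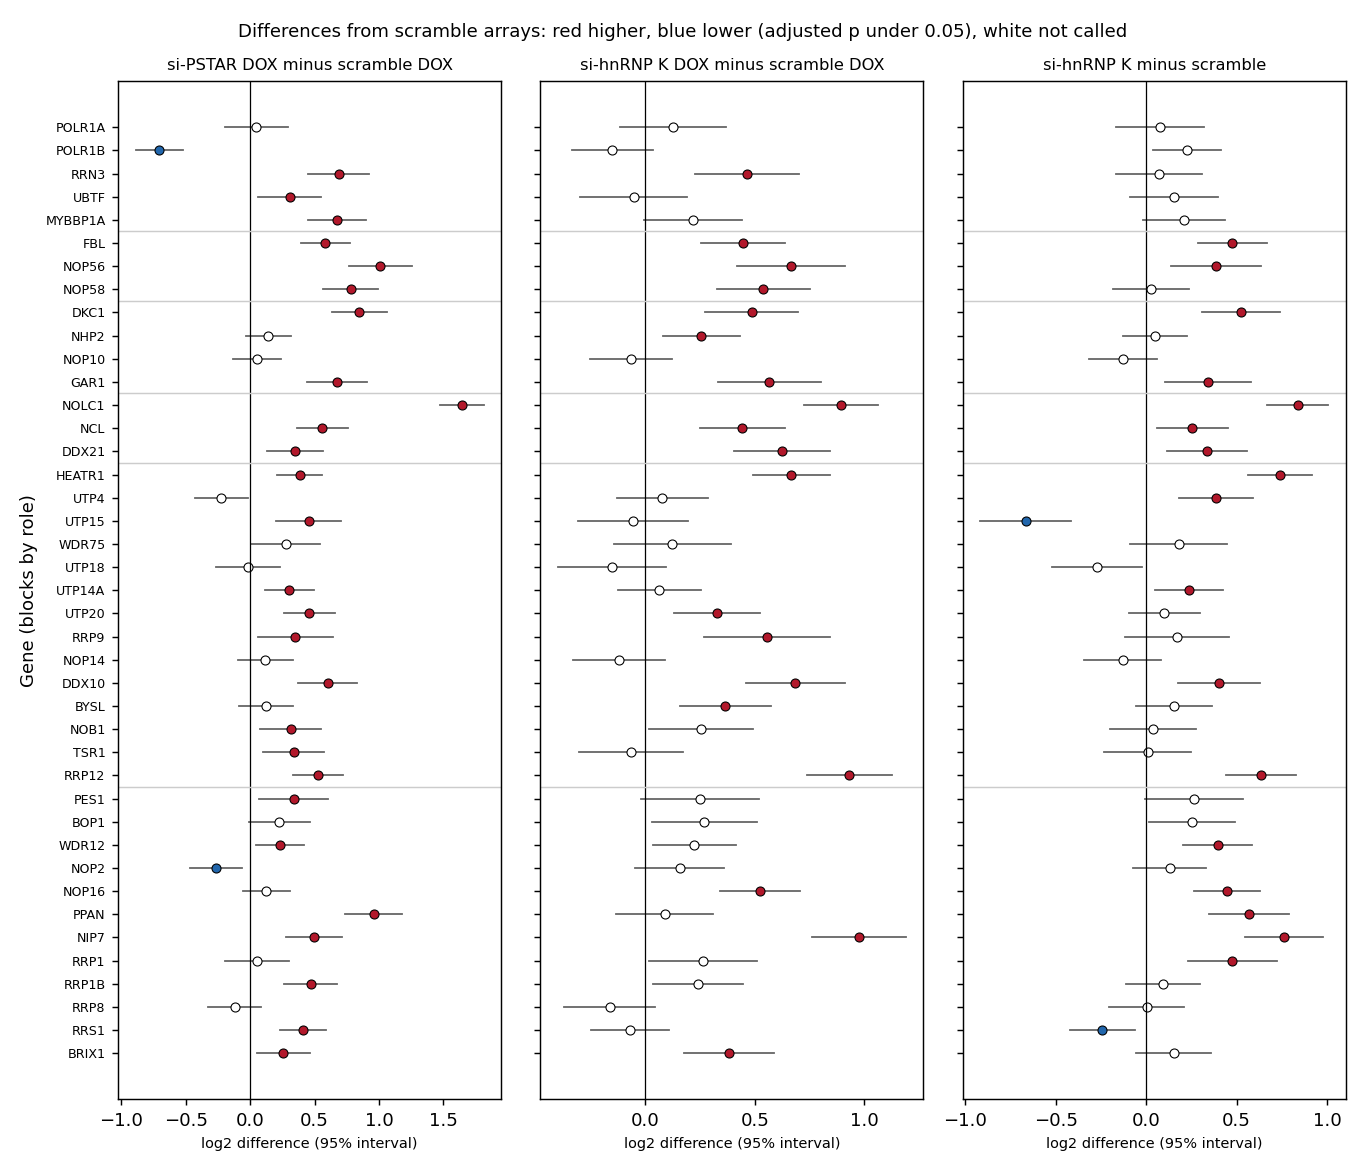
Log2 difference from the scramble arrays (horizontal axes, points with 95% intervals) for each of the 41 tested members in blocks by role, for arrays labelled si-PSTAR with DOX, si-hnRNP K with DOX and si-hnRNP K without drug. Red points are higher, blue points lower and white points not called at a limma adjusted p of 0.05: 27, 19 and 17 members were higher and 2, 0 and 2 lower.

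Other values moved beside these differences. MYC was higher by 0.48 in arrays labelled si-PSTAR with DOX, by 0.57 in si-hnRNP K arrays with DOX and by 0.62 in si-hnRNP K arrays without it, each against its scramble arrays (limma adjusted p = 0.000126, 1.77e-05 and 6.97e-06). MAX, the partner of MYC, fell by 0.68 and the antagonist MXD1 fell by 0.57 in the si-PSTAR arrays with DOX. MXD1 also fell in si-hnRNP K arrays, by 0.50 with DOX and 0.33 without it, where MAX (0.23 and 0.25) was not called. In si-PSTAR arrays with DOX, 6 of the 12 tested members with CACGTG in the promoter window were higher and 1 was lower (median 0.21). Of the 23 without it, 16 were higher and 1 was lower (median 0.34). In the si-hnRNP K arrays with DOX, 4 of the 12 with the word and 12 of the 23 without it were higher.

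Markers also moved. COL1A1 and COL3A1 fell by 0.88 and 0.56 in si-PSTAR arrays with DOX. COL3A1 fell by 0.84 and ALB was 1.84 higher in si-hnRNP K arrays with DOX, and without drug COL3A1 fell by 1.42, COL1A1 fell by 0.50 and ALB was 2.13 higher. The mean log2 level of the 6 markers of other cell types ranged over 6.17 to 6.20 in si-PSTAR arrays with DOX, 6.28 to 6.30 in si-hnRNP K arrays with DOX and 6.35 to 6.50 in scramble arrays with DOX. That of the 9 hepatocyte markers ranged over 5.80 to 5.86, 5.93 to 6.01 and 5.71 to 5.76 in the same groups. ALB averaged 8.69 in si-hnRNP K arrays with DOX and 6.84 in scramble arrays with DOX, while the means of the other 8 lay between 5.44 and 5.79 and between 5.46 and 5.84 in these groups. The part of these shifts in the results for ribosome biogenesis factors was not tested, and fewer cells of a type and less RNA per cell cannot be told apart in such samples.

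The 2 knockdown comparisons in drug-treated cells share the scramble arrays, so the labelled knockdowns were also set against each other. In arrays labelled si-hnRNP K with DOX, 8 members were higher and 10 were lower than in arrays labelled si-PSTAR with DOX, while 43.3% of all tested genes were called, 22.3% higher and 20.9% lower. The share of members called was thus near that of all genes. POLR1B was 0.55 ± 0.090 (SE) higher, NIP7 0.48 ± 0.10 (SE) and NOP2 0.42 ± 0.099 (SE), and all 3 were higher on every array. PPAN was lower by 0.87 on the log2 scale, NOLC1 fell by 0.75 and UTP15 fell by 0.51, with limma adjusted p of 2.32e-07, 2.58e-08 and 0.00125. UTP15 read 6.14, 6.17 and 6.25 in the si-hnRNP K arrays and 6.68, 6.56 and 6.86 in the si-PSTAR arrays, without overlap. MYC differed by 0.09 between them (limma adjusted p = 0.449). ALB was 1.76 and COL1A1 0.60 higher in the si-hnRNP K arrays, while COL3A1 differed by -0.28 and was not called. The other hepatocyte markers averaged 5.44 to 5.79 in the si-hnRNP K arrays and 5.51 to 5.93 in the si-PSTAR arrays. The part of these markers in the result was not tested.

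**Figure D3:**
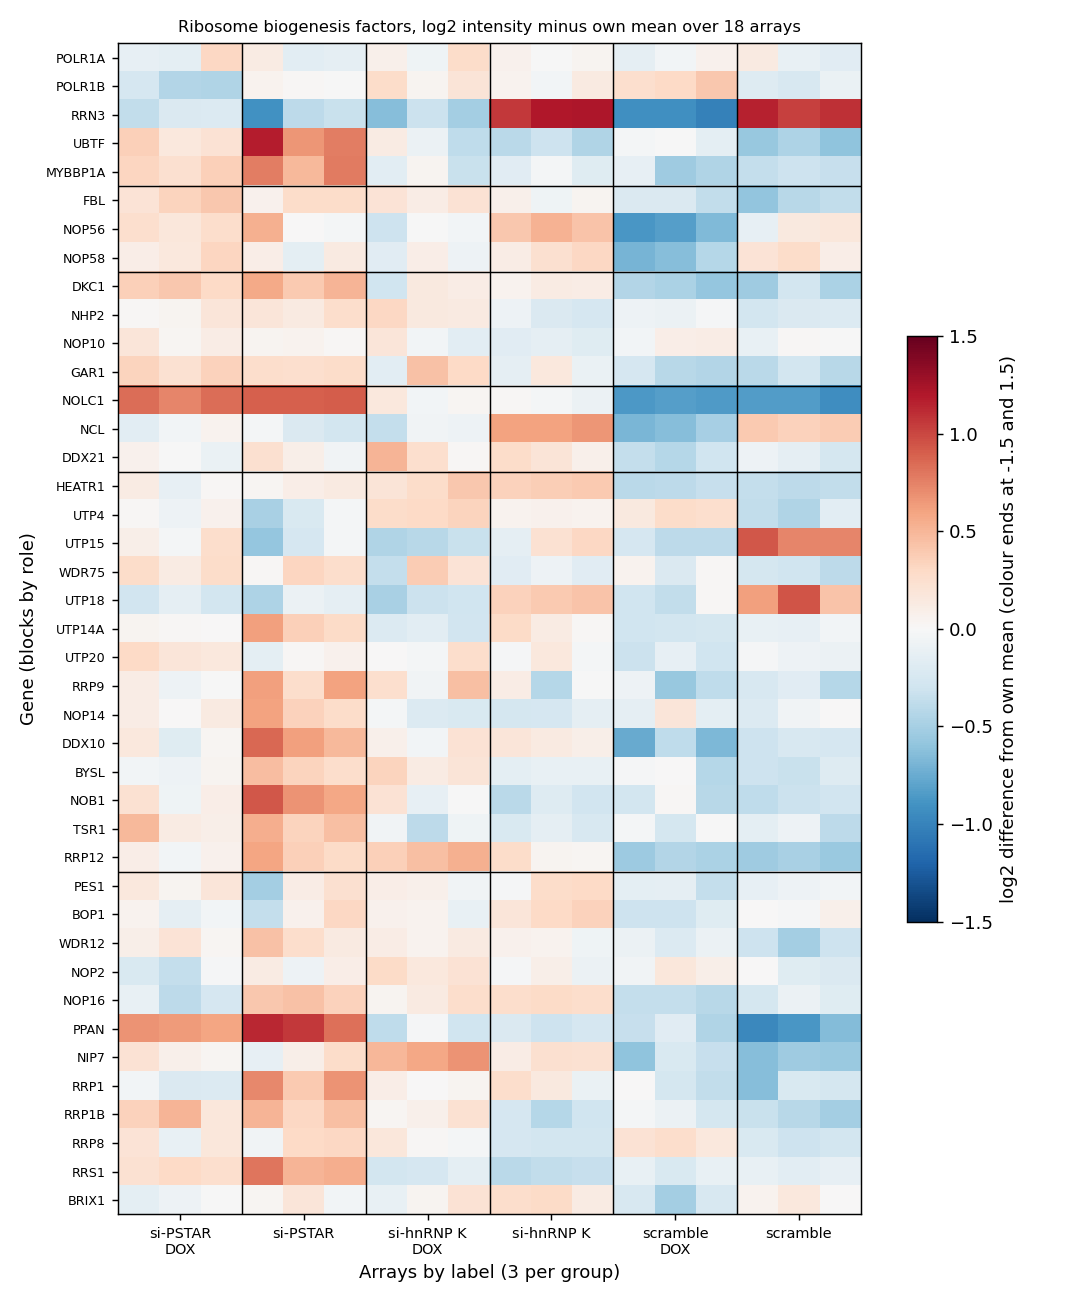
Each tested member (rows, in blocks by role) on each array (columns, 3 per labelled group), coloured by log2 intensity minus the gene's own mean over 18 arrays, with colours ending at -1.5 and 1.5. The median over members is 0.01 to 0.12 on si-PSTAR arrays with DOX, 0.24 to 0.27 on si-PSTAR arrays without it, 0.04 to 0.07 and 0.02 to 0.06 on si-hnRNP K arrays with and without DOX, and -0.35 to -0.22 on all scramble arrays.

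Within the arrays labelled si-PSTAR, more members were lower with the drug than were higher. With DOX, 14 members were lower and 1 was higher than without it at a limma adjusted p under 0.05, while 17.9% of all tested genes were called, 7.69% lower and 10.2% higher. The median was -0.10 over the members and 0.02 over all tested genes. By role the lower members were 7 of 14 small-subunit factors, 4 of 12 large-subunit factors and 3 of 5 polymerase I genes, and 0 of the 10 tested small nucleolar RNP proteins, chaperones and helicases were called. A fit of these arrays alone called 9 members, all lower, and so did the full fit without the first untreated si-PSTAR array, which lost MYBBP1A, UTP15, RRP9, NOP14, RRP12 and PPAN.

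RRP1, a large-subunit factor, read 8.18, 8.00 and 8.01 with DOX and 8.95, 8.61 and 8.89 without it in arrays labelled si-PSTAR, a difference of -0.75 (limma adjusted p = 1.06e-04). DDX10 read 9.99, 9.65 and 9.86 with DOX against 10.70, 10.45 and 10.32, a difference of -0.65. NOP16, also of the large subunit, read 9.88, 9.60 and 9.74 against 10.39, 10.44 and 10.34, a difference of -0.65. No array overlapped for these 3 genes. NOB1, the endonuclease that completes small-subunit ribosomal RNA, read 8.52, 8.24 and 8.40 with DOX and 9.23, 8.97 and 8.88 without it, a difference of -0.64. UBTF, which binds the ribosomal RNA genes with polymerase I, read 8.28, 8.09 and 8.14 against 9.10, 8.58 and 8.69, a difference of -0.62. Here too the drug-treated arrays were all lower than the untreated ones. UTP15 was the member called higher, at 6.68, 6.56 and 6.86 with DOX and 6.01, 6.34 and 6.56 without it (limma adjusted p = 0.0257), and its arrays overlapped narrowly. Its call was lost without untreated replicate 1 (0.25) or drug-treated replicate 1 (0.41) or 3 (0.32), and in a fit of these arrays alone. The second-brightest probe ended the calls of UBTF (-0.26), POLR1B (-0.11), UTP14A and NOP14, where it turned the sign to 0.087. Of the 5 called members with 2 probes above the filter, 1 was also called with the second probe. NOLC1 differed by -0.10 between these groups (95% interval -0.27 to 0.07). MYC fell by 0.38 and COL1A1 fell by 0.56 while COL3A1 was 0.55 higher. Their part in the result was not tested.

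The remaining comparisons cross the 2 clusters of arrays, and there the probes of a gene disagreed. Over 1169 genes with 2 probes averaging at least 7.5, the correlation across genes of the 2 probes' differences was 0.862 for untreated si-hnRNP K, and under the drug it was 0.776 for si-PSTAR and 0.760 for si-hnRNP K, each against scramble. It was 0.295 for untreated si-PSTAR against untreated scramble, 0.230 for the drug in scramble arrays and 0.229 for the drug in si-hnRNP K arrays. Knockdown, drug and cluster cannot be told apart in these 3 comparisons. Within the larger cluster the correlation was 0.771 between the knockdowns with DOX and 0.558 for the drug in si-PSTAR arrays. For the interactions with the drug it was 0.193 for si-PSTAR and 0.288 for si-hnRNP K. Genes are not independent replicates, so these are descriptions.

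NOP56 shows how probes disagreed across the clusters. Its 3 probes rose by 1.01, 0.98 and 0.78 in si-PSTAR arrays with DOX against scramble arrays with DOX, and by 0.67, 0.52 and 0.48 in si-hnRNP K arrays with DOX. In untreated si-PSTAR arrays against untreated scramble arrays the same probes gave 0.11, -0.71 and -2.88, and for the drug in scramble arrays -0.85, -1.54 and -3.51. GAR1 had 4 probes that gave 0.63, 0.84, 0.93 and -2.60 for untreated si-PSTAR. The 2 NCL probes, for the nucleolar RNA-binding protein nucleolin, gave -0.54 and 0.83 in that comparison.

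**Figure D4:**
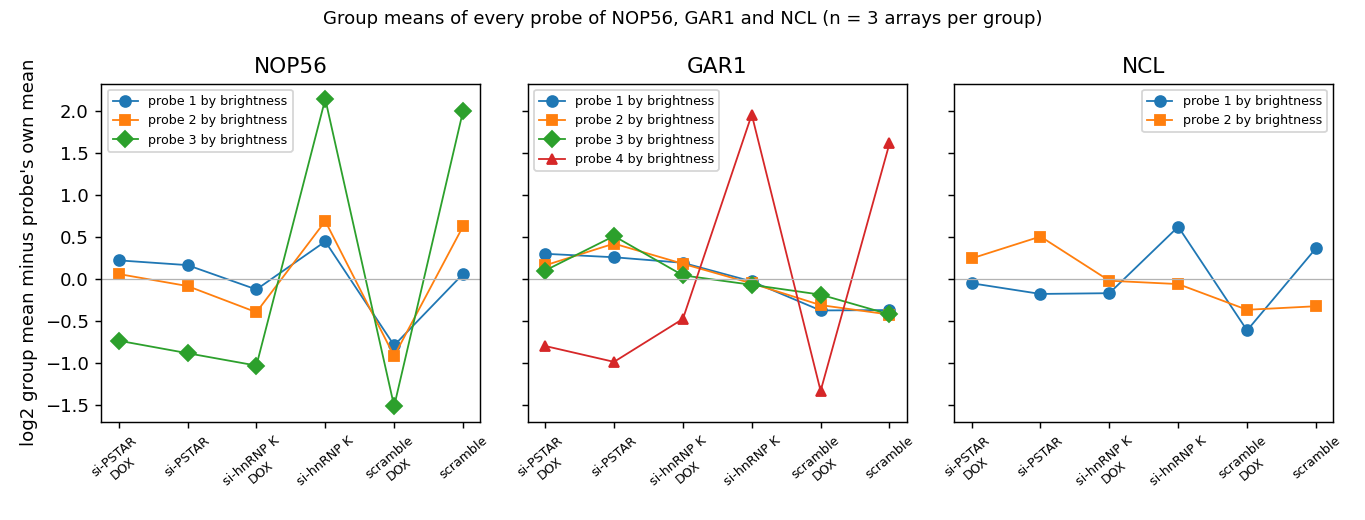
Group means (n = 3 arrays) of every probe of NOP56, GAR1 and NCL, as log2 intensity minus the probe's own mean over 18 arrays (vertical axes), by labelled group. In the untreated si-hnRNP K and untreated scramble groups the third NOP56 probe lies 2.15 and 2.00 and the fourth GAR1 probe 1.96 and 1.62 above its own mean, and both probes lie below it in the other 4 groups.

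In untreated arrays, 26 members were higher and 4 were lower with the si-PSTAR label than with scramble, while 66.2% of all tested genes were called, 43.6% higher and 22.6% lower. The median was 0.52 over the members and 0.17 over all tested genes. With cyclic loess scaling the counts were 21 and 6, the median of all genes was -0.00, and the share of all calls that were higher was 45.5% in place of 65.9%. PPAN read 9.39, 9.31 and 9.09 against 7.29, 7.39 and 7.61 in the scramble arrays, a rise of 1.84 ± 0.11 (SE). NOLC1 read 10.11, 10.11 and 10.12 against 8.37, 8.37 and 8.28, a rise of 1.77 ± 0.082 (SE). UBTF read 9.10, 8.58 and 8.69 against 7.35, 7.47 and 7.32, a rise of 1.41 ± 0.12 (SE). No array of these genes overlapped, but the second-brightest UBTF probe gave 0.11 (limma adjusted p = 0.545), which ends that call.

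Lower in the same comparison were RRN3, UTP15, UTP18 and NCL. RRN3 read 6.84, 7.35 and 7.41 in untreated si-PSTAR arrays and 8.89, 8.77 and 8.84 in untreated scramble arrays, a difference of -1.63 (limma adjusted p = 2.88e-12). UTP15 read 6.01, 6.34 and 6.56 against 7.52, 7.32 and 7.32, a difference of -1.09. UTP18, a small-subunit processing factor, read 8.74, 9.11 and 9.06 against 9.82, 10.14 and 9.62, a difference of -0.89. The groups did not overlap for any of the 3. Each of these 3 genes has 1 probe, so no second probe could be set beside it. COL3A1 fell by 2.05 and ALB was 0.47 higher in this comparison, and their part in the result was not tested.

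The drug in scramble arrays gave 7 higher and 9 lower members, while 65.2% of all tested genes were called, 50.3% higher and 14.9% lower. The median was 0.02 over the members and 0.24 over all tested genes. With cyclic loess the members' counts were 1 higher and 21 lower, the median of all genes was 0.05, and the share of all calls that were higher was 51.1% in place of 77.2%. UTP4, of early small-subunit processing, read 11.06, 11.19 and 11.16 with DOX and 10.54, 10.46 and 10.75 without it, a rise of 0.55. PPAN read 7.92, 8.09 and 7.80 against 7.29, 7.39 and 7.61, a rise of 0.51. POLR1B read 7.84, 7.88 and 7.99 against 7.40, 7.34 and 7.49, a rise of 0.50, though its second-brightest probe gave -0.28. With cyclic loess PPAN (0.20) and POLR1B (0.18) were no longer called, and UTP4 was 0.30. RRN3 read 6.83, 6.82 and 6.73 with DOX and 8.89, 8.77 and 8.84 without it in scramble arrays, a difference of -2.04 (limma adjusted p = 3.79e-14). Of the 41 members RRN3 fell furthest in this comparison, but like UTP15 it has 1 probe, so no second probe could be compared. UTP15 read 6.33, 6.20 and 6.20 against 7.52, 7.32 and 7.32, a difference of -1.14, and NCL read 11.23, 11.28 and 11.41 against 12.31, 12.26 and 12.29, a difference of -0.98. None of these groups overlapped. The second-brightest NCL probe gave -0.042 (limma adjusted p = 0.761), which ends that call. COL3A1 fell by 0.94 and ALB was 0.37 higher with DOX in scramble arrays, while COL1A1 differed by 0.08 and was not called. The part of these markers in the result was not tested.

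In arrays labelled si-hnRNP K, 10 members were higher and 8 were lower with DOX than without it, while 58.8% of all tested genes were called, 45.5% higher and 13.2% lower. The median was 0.07 over the members and 0.21 over all tested genes, and with cyclic loess the counts were 0 higher and 16 lower, with 49.8% of all calls higher in place of 77.5%. RRP1B read 8.77, 8.81 and 8.97 with DOX and 8.49, 8.30 and 8.44 without it, a difference of 0.44. NIP7 read 10.83, 10.91 and 11.00 against 10.44, 10.56 and 10.55, a difference of 0.40, and NHP2 read 12.58, 12.43 and 12.41 against 12.20, 12.06 and 12.03, a difference of 0.38. These arrays did not overlap, but with cyclic loess the differences were 0.18 for RRP1B, 0.15 for NIP7 and 0.19 for NHP2, and none was called. RRN3 read 7.11, 7.43 and 7.24 with DOX and 8.80, 8.95 and 8.96 without it, a difference of -1.65. NCL read 11.56, 11.86 and 11.84 against 12.52, 12.52 and 12.58, a difference of -0.79, and UTP18 read 8.72, 8.87 and 8.90 against 9.55, 9.59 and 9.63, a difference of -0.76. With these probes RRN3, NCL and UTP18 were lower on every drug-treated array. The second-brightest NCL probe turned the sign to 0.040 and was not called, and RRN3 and UTP18 have 1 probe each. COL3A1 fell by 0.37 and COL1A1 was 0.30 higher, and their part was not tested.

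The interaction of the si-PSTAR label with the drug called 21 members, 7 higher and 14 lower, while 52.9% of all tested genes were called, 14.1% higher and 38.8% lower. The share of members called was thus near that of all genes, and the median was -0.24 over the members and -0.24 over all tested genes. RRN3 (2.32), UTP15 (1.54) and NCL (1.11) had the largest positive values and UBTF (-1.10), RRP1 (-0.92) and POLR1B (-0.90) the largest negative ones. With cyclic loess 10 members were higher and 5 lower, and these 6 genes kept their signs and calls. The second-brightest probe ended 3 of the 6 calls, with NCL at -0.22, POLR1B at 0.17 and UBTF at -0.34. RRN3 and UTP15 have 1 probe each and the second RRP1 probe lay below the filter. Their calls could therefore not be checked in this way. The comparison crosses the clusters through the untreated scramble arrays.

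Other genes of the pathway were counted from lists of the same kind, beside 22.4% higher and 22.6% lower over all tested genes for si-PSTAR with DOX, 19.8% and 19.9% for si-hnRNP K with DOX and 17.0% and 16.2% for si-hnRNP K without drug. In arrays labelled si-PSTAR with DOX against scramble arrays with DOX, 21 of 42 other small-subunit factors were higher and 1 was lower, with UTP25 at 1.15, IMP4 at 0.72 and BMS1 at 0.71. Of 48 other large-subunit factors 27 were higher and 6 lower, among them GNL2 at 0.73 and WDR18 at -1.31. Of 12 genes of the RNA exosome, which trims ribosomal RNA precursors, and its cofactors, 8 were higher and 0 lower, led by the nuclease DIS3 at 1.31. Of 16 other polymerase I genes 5 were higher (31.2%) and 2 lower, the lower ones being POLR2L at -1.07 and POLR2E at -0.66, subunits that polymerases share.

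In arrays labelled si-hnRNP K with DOX the corresponding counts were 23 higher and 1 lower of 42, 20 and 2 of 48, 5 and 0 of 12, and 3 and 1 of 16, in the same order of lists. The 3 higher polymerase I genes of 16 (18.8%) lay near the share over all genes, with and without drug. Examples were DHX37 at 0.89, MAK16 at 1.17, NOC3L at 0.92, EXOSC3 at 0.80 and NOP53 at -0.70. Without drug they were 14 and 3 of 42, 20 and 2 of 48, 5 and 0 of 12, and 3 and 1 of 16, with RIOK1 at 0.69, NMD3 at -0.74 and TAF1A, of the polymerase I promoter factor, at 1.01. The 71 cytosolic ribosomal protein genes were close to or below the background. In arrays labelled si-PSTAR with DOX 13 were higher and 7 lower, with a median of 0.01, in si-hnRNP K arrays with DOX 12 and 7, with a median of 0.02, and in si-hnRNP K arrays without drug 5 and 11, with a median of -0.04.

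**Figure D5:**
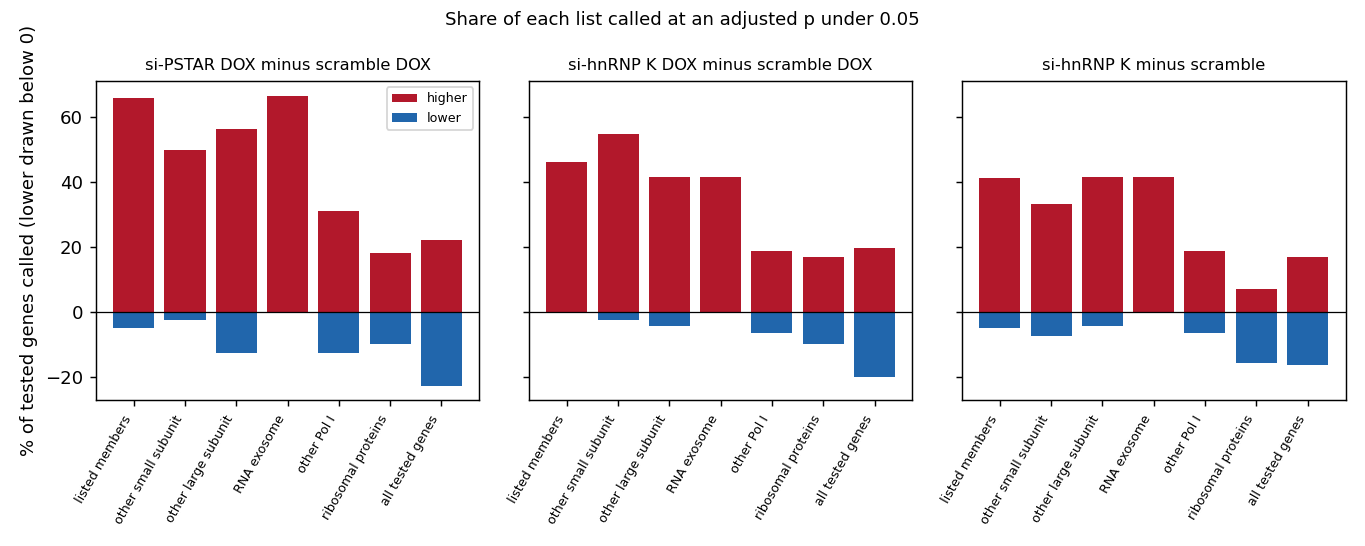
Percent of tested genes in each list called higher (above 0) and lower (drawn below 0) at a limma adjusted p of 0.05, for arrays labelled si-PSTAR with DOX, si-hnRNP K with DOX and si-hnRNP K without drug, each against its scramble arrays. The listed members stand at 65.9%, 46.3% and 41.5% higher, the cytosolic ribosomal protein genes at 18.3%, 16.9% and 7.04%, and all tested genes at 22.4%, 19.8% and 17.0%.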

How the data were processed

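The authors deposited log2 intensity values of 43961 probes on 18 arrays. Amplified RNA was hybridised, per the labels' protocols. The log2 scale and quantile normalization were inferred from the deposited values, since at 99.9955% of ranks the sorted columns differ by under 0.01. The software and any correction for background were not given in the sources used here. Where the labels' protocol leaves the hours of DOX open, the 16 hours of the design text were taken.

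Gene symbols came from a platform annotation table for the probes (29511 with 1 symbol, 0 with several, 14450 with none here), and 29474 matched RefSeq by identifier. For each of 19782 genes the probe of highest mean was kept, and the 7299 genes averaging under 5.72, the median over all probes, were dropped. A model of 6 group means over 18 arrays was fitted with limma (version 3.58.1, R 4.3.3), giving moderated two-sided tests on 12 residual degrees of freedom, adjusted by Benjamini-Hochberg over 12483 genes with calls at 0.05. For single values, exact permutation of 3 against 3 arrays has a smallest p of 0.1, so it was not used. The number of arrays limits the precision.

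Per-array values are given for the 5 largest called rises and falls in the 2 drug-treated knockdown comparisons, in untreated si-hnRNP K and for the drug in si-PSTAR arrays, for the 3 largest each way elsewhere, and differences for up to 4 genes of the smallest p from each pathway list. Members and lists were chosen with earlier results of these data known. The alternatives changed the scaling (cyclic loess or the 75th percentile), the filter (none or the 70th percentile), the probe rule (mean of all probes), the arrays fitted (only those compared, or 1 left out) and the model (replicate block, array weights, robust trended prior). Since the sorted columns were nearly equal, centring on the 75th percentile could change little, and it left every count of members called the same. The larger cluster alone and the second-brightest probe were added after seeing the data. The second-brightest probe replaced values only for the 14 members with 2 probes above the filter. Promoters came from RefSeq, GRCh38.p14.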

Additional observations from a re-analysis of the deposited data

Results flagged for a closer look

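The effect of DOX differed between arrays labelled si-PSTAR and scramble arrays for 21 of the 41 members, by limma's interaction term at an adjusted p under 0.05, while 52.9% of all tested genes were called, 14.1% higher and 38.8% lower. Of the members, 17.1% were higher and 34.1% lower, so the count is near the share over all genes and does not set the members apart. A value is the drug's log2 difference in si-PSTAR arrays minus that in scramble arrays. Higher were RRN3 at 2.32, UTP15 at 1.54, NCL at 1.11, NOP58 at 0.95, NOP56 at 0.91, UTP18 at 0.87 and UTP20 at 0.42. Lower were UBTF at -1.10, RRP1 at -0.92, POLR1B at -0.90, PPAN at -0.88, NOB1 at -0.74, RRP8 at -0.58 and BYSL at -0.51. Smaller negative values were those of NOP16 at -0.45, NOP2 at -0.44, WDR12 at -0.42, RRP12 at -0.41, NOP14 at -0.38, RRP1B at -0.37 and RRS1 at -0.34.

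RRN3, which has 1 probe, illustrates how the value arises. The drug's difference was 0.28 in arrays labelled si-PSTAR and -2.04 in scramble arrays, where untreated arrays read 8.89, 8.77 and 8.84. The untreated scramble arrays lie in the smaller cluster of arrays, so interaction and cluster cannot be told apart. With cyclic loess 10 members were higher and 5 lower, in place of 7 and 14, the median of all genes was -0.04 in place of -0.24, and the share of all calls that were higher was 56.5% in place of 26.6%. Of the members called with 2 probes above the filter, 4 of 8 had the same sign with both.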

How the results depend on the processing

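The count of members called stayed within 1.5 times its value under the alternatives run, apart from the values here. For the drug in si-PSTAR arrays 15 members were called, against 9 in a fit of the compared arrays alone. For the interaction of si-hnRNP K with the drug 0 were called, against 2 with cyclic loess, the 70th percentile filter, the mean of all probes, the compared arrays alone, the replicate block or the trended robust prior, 4 with array weights and 1 with the second-brightest probe. Leaving out single arrays gave 22 to 26 calls for si-PSTAR with DOX, 18 to 21 for si-hnRNP K with DOX, 14 to 17 for si-hnRNP K, 29 to 30 for si-PSTAR, 9 to 15 for the drug in si-PSTAR arrays (9 without the first untreated si-PSTAR array), 14 to 17 for the drug in scramble, 13 to 16 for the drug in si-hnRNP K, 14 to 18 between the knockdowns with DOX, 19 to 24 for the si-PSTAR interaction and 0 to 1 for the other.

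No clear pairing of arrays by replicate number was seen. The deviations of same-numbered arrays correlated at -0.19 to 0.19, never all over 0.1 in a comparison. With 3 arrays per group this cannot show that pairing was absent. With the replicate block 29 and 19 members were called for the 2 knockdowns with DOX, against 29 and 19 without it. Every array of si-hnRNP K correlated best with its own number between drug and no drug (3 of 3), and 0 of 3 did in scramble. Of 7196 single-gene results under alternatives, 253 lost the call, 176 gained one and 33 changed sign with a call before or after the change of setting. The other 6734 stayed on the same side of the threshold. They include sign changes of genes called under neither setting, which were not counted apart. The cause of the sign changes was not tested.

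Sign changes follow. With the second-brightest probe, si-PSTAR with DOX gave UBTF -0.23 and NOP2 0.12, and si-hnRNP K with DOX gave NOP14 0.45. Untreated si-PSTAR gave POLR1B -0.44, NOP56 -0.71, NCL 0.83 and NOP14 -1.09. The drug gave NOP14 0.087 in si-PSTAR, POLR1B -0.28, NOP14 -1.43 and NOP2 -0.21 in scramble, and UBTF -0.18, NCL 0.040, NOP14 -1.31 and TSR1 -0.31 in si-hnRNP K. Between knockdowns UBTF was 0.011, and the si-PSTAR interaction gave POLR1B 0.17, GAR1 -0.37, NCL -0.22, NOP14 1.52 and NOP2 0.056. With the mean of all probes, untreated si-PSTAR gave NOP56 -1.16, GAR1 -0.049, NCL 0.14 and NOP14 -0.30, the drug gave NOP14 -0.69 in scramble and GAR1 -0.47 and NOP14 -0.62 in si-hnRNP K, and the si-PSTAR interaction gave NOP14 0.57. With cyclic loess the drug in scramble gave NOLC1 -0.27, RRP12 -0.26, WDR12 -0.026 and RRP1B -0.011.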
